A study of Mus musculus with 4 samples.

Results

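The genes described here are the vomeronasal receptor genes of the mouse autosomes, without the group at the start of chromosome 7. They were taken by name: every autosomal gene on the array whose name begins with V1r, V2r, Vmn1r or Vmn2r, leaving out those that start below 26.5 Mb on chromosome 7. This gave 75 of 21341 named autosomal genes, with 147 of 159076 autosomal probes. Of the 95 autosomal vomeronasal names on the array, the other 20 lie in the left-out group, and another 2 names lie off the autosomes. The 75 genes comprise 25 V1R genes and 50 V2R genes. A single probe stood for 51 of them, 2 to 5 probes for 23, and 36 probes for Vmn2r99.

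The measurements come from array comparative genomic hybridization of DNA from liver tumours of 4 different mice, 1 array each. By the labels, tumour and reference DNA alike came from Trp53-/- males. Reference DNA was pooled from the spleens of 3 littermates matched for sex, although the labelling protocol names liver. The labels give no age, no driver of the Trp53 loss and no untreated tumour-free group, so the reference DNA is the only comparison. Tumour DNA carried Cy5 and reference DNA Cy3 on all arrays, with no dye swap, and the arrays of tumours 1 and 2 lay on 1 slide and those of tumours 3 and 4 on another. A gene's value is the log2 ratio of tumour over reference signal, averaged over its probes, with 0 set at the median of all autosomal probes of that array. On this scale a loss of 1 of 2 copies in every cell gives -1, and a gain from 2 copies to 3 gives 0.58. The share of tumour cells in each sample was not given, and a smaller share brings both values nearer to 0.

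Vomeronasal receptors are G protein-coupled receptors of the sensory neurons of the vomeronasal organ, which detects pheromones and scents of other animals. V1R receptors are carried by neurons that use the G protein subunit Gnai2, and their genes have a coding region in 1 exon. V2R receptors have a long extracellular domain, are carried by neurons that use Gnao1, and are encoded over several exons. Both families lie in clusters of recent duplicates, and their copy number differs between mouse strains. They are not known to act in the liver, so here they serve as stretches of DNA whose copy number was read, and no expression was measured.

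The probes of these genes are rich in A and T. GC content had a median of 35% over the 147 member probes and of 36.7% over all autosomal probes. Of the member probes 47.6% lay under 35% GC, against 12.1% of all autosomal probes, and under 30% GC lay 13.6% against 1.57%. The probes below are those of the genes on which the description turns most: the lowest and the highest member of tumour 2, the widest and the narrowest range over tumours, the lowest GC content, and a member with high GC content. Each is printed as the array files give it, with G and C in capitals. The files name a gene for each probe, not an exon or intron, and give no strand.
Vmn2r105, chr17:20346589-20346648: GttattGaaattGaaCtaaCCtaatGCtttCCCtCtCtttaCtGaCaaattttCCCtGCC
Vmn2r103, chr17:19919025-19919084: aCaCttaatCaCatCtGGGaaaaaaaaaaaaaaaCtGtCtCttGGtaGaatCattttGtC
Vmn2r103, chr17:19931509-19931568: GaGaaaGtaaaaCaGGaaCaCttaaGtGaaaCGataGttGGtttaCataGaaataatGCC
V1ri1, chr13:22279801-22279860: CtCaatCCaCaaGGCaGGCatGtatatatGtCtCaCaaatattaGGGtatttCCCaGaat
V1rh11, chr13:22615896-22615950: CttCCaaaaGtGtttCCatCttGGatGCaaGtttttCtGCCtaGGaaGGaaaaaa
V1ri10, chr13:23191872-23191931: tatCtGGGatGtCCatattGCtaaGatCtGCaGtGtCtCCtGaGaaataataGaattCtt
Vmn2r83, chr10:78953293-78953352: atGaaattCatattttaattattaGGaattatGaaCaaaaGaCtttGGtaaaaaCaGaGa
Vmn2r22, chr6:123590121-123590175: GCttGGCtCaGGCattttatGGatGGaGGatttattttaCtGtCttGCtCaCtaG

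Positions are those of the mouse build mm9. The probe of Vmn2r83 holds 21.7% GC, those of Vmn2r103 30% and 33.3%, those of Vmn2r105 and V1ri10 36.7%, that of V1rh11 38.2%, that of V1ri1 38.3% and that of Vmn2r22 41.8%. No member probe shared a run of 20 bases with a probe of another member on either strand. Only the 2 probes of V1rh13 shared such a run, with each other. This comparison covers the probes on the array and not other copies in the genome.

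Taken over the family, the vomeronasal genes lay close to 0 in tumours 1, 3 and 4 and below 0 in tumour 2. The median over the 75 genes was -0.039 in tumour 1, -0.15 in tumour 2, 0.021 in tumour 3 and -0.034 in tumour 4, a mean of -0.051 ± 0.074 (SD, n = 4). The medians over all 21341 genes were 0.0047, 0.014, -0.0073 and -0.019. The mean over tumours was below 0 for 53 members and above 0 for 22, from -0.29 for Vmn2r105 to 0.19 for V1ri1. These means had a median of -0.058 over the members and -0.0040 over all genes. With the trend on probe GC content removed, the 2 medians were -0.031 and -0.0075. Tumour 2 gave the lowest of the 4 values for 41 members, a count with no share of all genes beside it. It gave the value farthest from 0 for 44 members and for 62.4% of all genes. No vomeronasal gene passed limma's test of the 4 values against 0 at a Benjamini-Hochberg adjusted p under 0.05, and neither did any of the 21341 genes (0%). At an unadjusted p under 0.05, 2 members were higher and 4 were lower, 8% of the members against 17.4% of all genes (7.95% higher and 9.46% lower). With a random block for slide, 437 genes (2.05%) were called and again none of the members. That fit estimated a correlation of -0.34 between arrays of a slide, and a negative value narrows the SE of a mean. The 437 calls rest on this estimate from 2 slides. The spread of the reference pool does not enter limma's test, and 4 arrays limit its precision: the median SE of a member's mean without the block was 0.065.

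**Figure D1:**
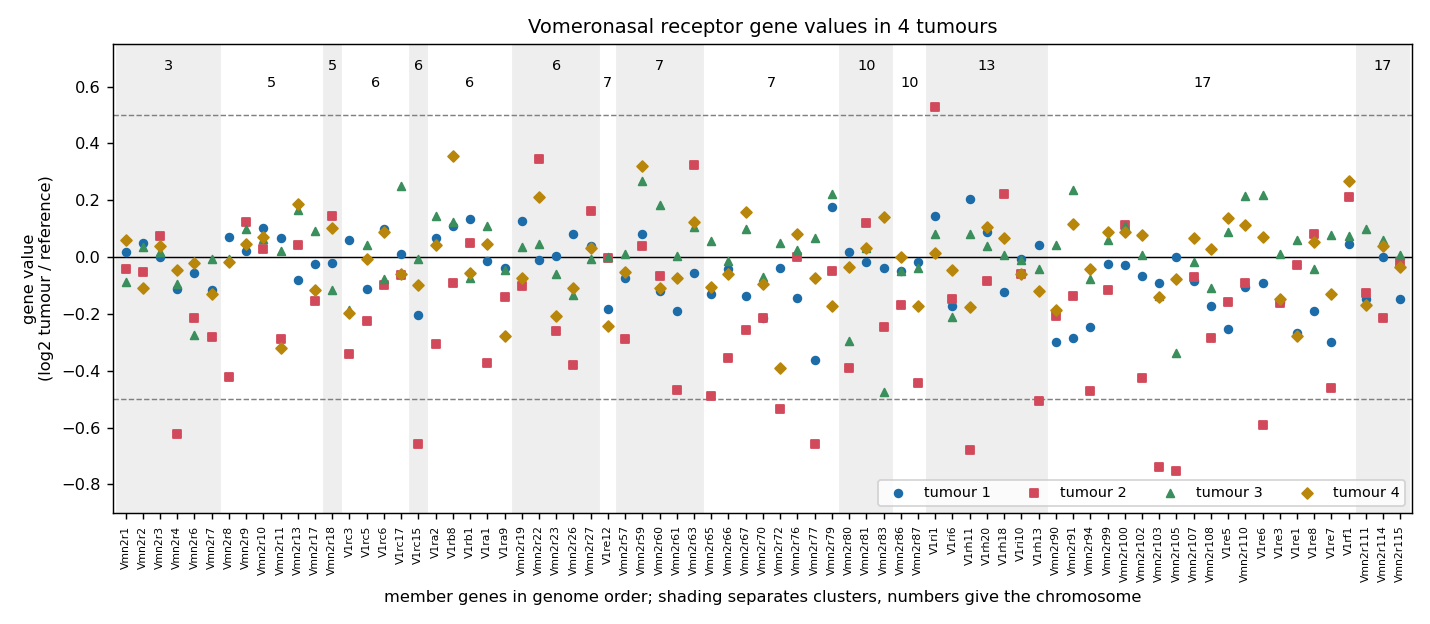
Value of each of the 75 vomeronasal receptor genes (log2 tumour over reference, y axis) in genome order (x axis), with 1 symbol per tumour and no error bars. The dashed lines mark 0.5 and -0.5. The only symbols beyond them are 10 of tumour 2, 9 below and 1 above.

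Large values were found in tumour 2 alone. A value of 0.5 or beyond (a ratio of 1.41 or more, or of 0.707 or less) was reached by 10 members in at least 1 tumour, 13.3% against 13.9% of all genes. All 10 reached it in tumour 2. None did in tumour 1, 3 or 4, where 1.65% of all genes did, and the farthest member there was Vmn2r83 at -0.48 in tumour 3. In tumour 2 the 10 split unevenly: 9 members lay at -0.5 or below (12.0% against 5.43% of all genes) and 1 at 0.5 or above (1.33% against 7.70%). Without tumour 2 the count is 0. At a limit of 0.3 the count in any tumour was 29 members, or 38.7% against 36.2% of all genes.

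Vmn2r105 and Vmn2r103, V2R genes of the large cluster on chromosome 17, were the lowest members of tumour 2. Vmn2r105, with 1 probe, read 0.0015, -0.75, -0.34 and -0.076 in tumours 1 to 4 (mean -0.29 ± 0.34, SD, n = 4; limma adjusted p = 0.308). Tumours 2 and 3 lay low and tumours 1 and 4 near 0. Vmn2r103 read -0.091, -0.74, -0.14 and -0.14 (mean -0.28 ± 0.31, SD, n = 4; limma adjusted p = 0.299). Both of its probes were below 0 in all 4 tumours, at -0.86 and -0.62 in tumour 2.

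V1rh11, a V1R gene of chromosome 13, had the widest range over the tumours, 0.89. It read 0.21, -0.68, 0.081 and -0.18, so that tumour 1 was high and tumour 2 low. V1ri1, of the same cluster, was the highest member of tumour 2 and read 0.14, 0.53, 0.082 and 0.015, above 0 in all 4 tumours (mean 0.19 ± 0.23, SD, n = 4; limma adjusted p = 0.329). V1ri10 of the same cluster had the narrowest range of all members, 0.053, with values of -0.0060, -0.059, -0.0086 and -0.059.

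The remaining members at -0.5 or below in tumour 2 were Vmn2r77 at -0.66, V1rc15 at -0.66, Vmn2r4 at -0.62, V1re6 at -0.59, Vmn2r72 at -0.54 and V1rh13 at -0.51 (V1rc15, V1rh13 and, next, Vmn2r65 are named after their values were seen). Vmn2r65 lay just inside the limit at -0.49. Of these, Vmn2r4 rested on 4 probes, all below 0 in tumour 2, from -0.78 to -0.24. Members with at least 2 probes reached 0.5 in 4 of 24 cases (16.7% against 5.89% of all such genes). Those with 1 probe did so in 6 of 51 cases (11.8% against 27.3%). The first comparison is not matched: 23 of the 24 members had 2 to 5 probes, whereas all such genes include many with more. Of the 4, V1rc15, Vmn2r4 and Vmn2r103 had 31.7% to 32.1% GC, and the 2 probes of V1rh13 overlap.

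Over all members, the distance from 0 was close to that over all genes, but among genes with 1 probe it was smaller for the members. The median distance, sign ignored, was 0.083, 0.21, 0.069 and 0.089 in tumours 1 to 4 for the members, a mean of 0.11 ± 0.066 (SD, n = 4). For all genes it was 0.075, 0.19, 0.071 and 0.087. With 1 probe it was 0.091, 0.21, 0.078 and 0.11 for the members and 0.10, 0.29, 0.10 and 0.12 for all genes. With 2 to 5 probes it was 0.081, 0.21, 0.037 and 0.074 for the members and 0.071, 0.19, 0.067 and 0.083 for all genes. The 424 olfactory receptor genes (names beginning with Olfr), another clustered family of chemosensory receptors, had 0.10, 0.26, 0.097 and 0.12. The 20 vomeronasal genes at the start of chromosome 7 had 0.13, 0.23, 0.13 and 0.19, above the members on every array. Of those 20 genes 7 reached 0.5 in at least 1 tumour, 3 of them in tumour 1, 3 or 4, where the shares of all genes were 13.9% and 1.65%. Most of the 20 had 1 probe, as did 6 of the 7, and 27.3% of all genes with 1 probe reached 0.5 in at least 1 tumour. Most olfactory receptor genes had 1 probe too, so these families are not matched to all genes in probe number. No test of these differences was made.

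**Figure D2:**
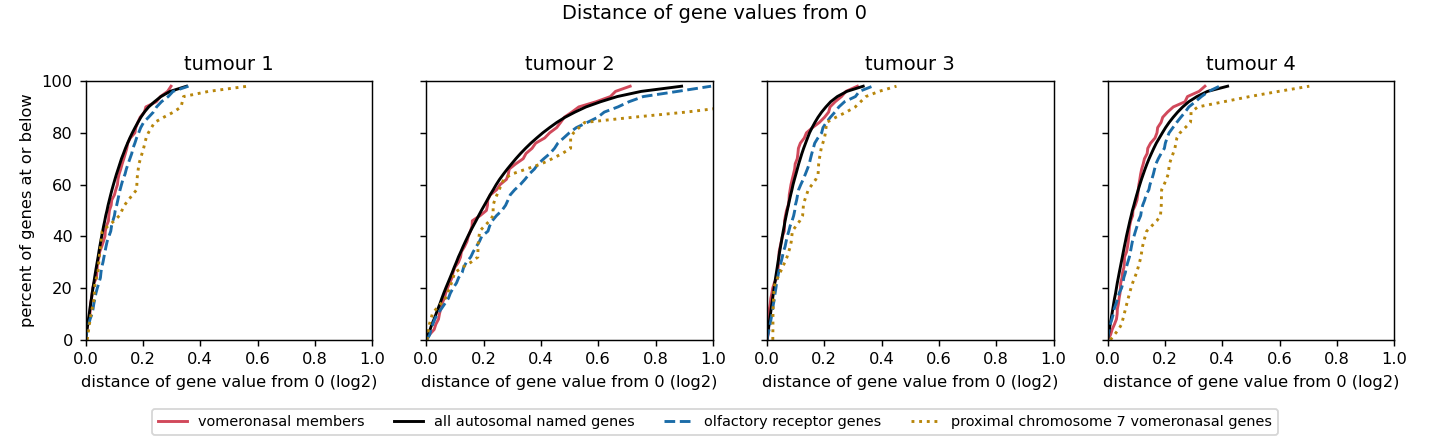
Percent of genes (y axis) at or below a given distance from 0 (x axis, log2, sign ignored) in each tumour, up to the 98th percentile, for the 75 members, all 21341 genes, 424 olfactory receptor genes and the 20 vomeronasal genes of proximal chromosome 7. The member and all-gene curves run close together, with medians of 0.083 and 0.075 in tumour 1 and 0.21 and 0.19 in tumour 2, and the proximal chromosome 7 curve crosses theirs in tumours 1 and 2 and has a median of 0.13 and 0.19 in tumours 3 and 4.

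The range over the tumours (highest minus lowest value) was wider for genes with 1 probe. It had a median of 0.31 over the members and 0.27 over all genes. Among members with 1 probe it was 0.34, against 0.40 for all genes with 1 probe. Among members with 2 to 5 probes it was 0.27, against 0.26 for all such genes. Without tumour 2 the median range was 0.20 for the members and 0.15 for all genes. At equal numbers of probes the gap was smaller. It was 0.22 against 0.21 with 1 probe and 0.15 against 0.14 with 2 to 5 probes.

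The signs of the members differed between tumours. In tumour 1, 49 members were below 0 (65.3% against 48.1% of all genes), and in tumour 2, 59 were (78.7% against 48.0%). In tumour 3, 30 were below 0 (40% against 52.8%), and in tumour 4, 42 (56.0% against 56.1%). Below 0 in all 4 tumours were 14 members (18.7% against 15.6% of all genes). Above 0 in all 4 were Vmn2r9, Vmn2r10, Vmn2r59, V1ri1 and V1rf1 (6.67% against 15.3%; Vmn2r9 is named after its values were seen). The other 56 were of mixed sign (74.7% against 69.1%).

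Vmn2r59 and V1rf1 were the 2 higher genes at the unadjusted threshold. Vmn2r59, a V2R gene of chromosome 7, read 0.081, 0.040, 0.27 and 0.32 (mean 0.18 ± 0.14, SD, n = 4; limma adjusted p = 0.254). V1rf1, at the distal end of the chromosome 17 cluster, read 0.045, 0.21, 0.075 and 0.27 (mean 0.15 ± 0.11, SD, n = 4; limma adjusted p = 0.264). Vmn2r70 of chromosome 7 had the smallest adjusted p of the members and read -0.21, -0.21, -0.069 and -0.096 (mean -0.15 ± 0.077, SD, n = 4; limma adjusted p = 0.234). None of the 3 passed after adjustment.

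No member was far from 0 in opposite directions. For each of the 6 pairs of tumours, 0 members lay at 0.3 or beyond with opposite signs. Of all genes, 0.539% did so between tumours 1 and 2, 0.0937% between 1 and 3, 0.244% between 1 and 4, 0.127% between 2 and 3, 0.351% between 2 and 4 and 0.159% between 3 and 4. Of the 20 genes of proximal chromosome 7, 2 did so between tumours 1 and 4. Over the 75 members, Pearson's r between tumours was lowest for tumours 1 and 3, at -0.0086, and highest for tumours 2 and 4, at 0.42. It was 0.21 for tumours 1 and 2, 0.13 for 1 and 4, 0.27 for 2 and 3, and 0.18 for 3 and 4. Over all 21341 genes it ran from 0.20 to 0.49. Genes are not independent replicates, and the points share an array, a reference pool and probe composition, so no p is given.

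Both families had their lowest median in tumour 2. The median of the 25 V1R genes was -0.015, -0.14, 0.038 and -0.046 in tumours 1 to 4, and that of the 50 V2R genes -0.041, -0.19, 0.020 and -0.028. Within the V1R genes, the 7 V1re genes had the lowest median in tumour 1, -0.19, and read -0.16, 0.062 and -0.13 in tumours 2 to 4. Of these, 6 lie in the large chromosome 17 cluster. The 5 V1rc genes of chromosome 6 read 0.012, -0.23, -0.0062 and -0.059. The 4 V1rh genes had medians of 0.065, -0.30, 0.023 and -0.026, and the 3 V1ri genes, which lie among them on chromosome 13, had -0.0060, -0.059, -0.0086 and -0.046. The 3 V1ra genes read 0.11 in tumour 3 and -0.31 in tumour 2. These are medians of few genes, mostly with 1 probe each, and their differences were not tested.

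Joined over gaps of at most 1 Mb, the members formed 15 clusters, of which 11 held at least 3 members and 70 members in all. The largest, on chromosome 17 from Vmn2r90 to V1rf1 (17841039 to 21366123), held 18 members and 56 probes. Its median was -0.13, -0.16, 0.052 and 0.059 in tumours 1 to 4. In tumour 1, 16 of its 18 members were below 0. The 120 other probes inside the span read -0.075 in tumour 1, the 152 probes within 1 Mb outside it -0.074, and the whole chromosome -0.078. The other cluster of chromosome 17, Vmn2r111 to Vmn2r115, read -0.15 in tumour 1, with 33 other probes inside its span at -0.11. Chromosome 7, which carries 14 members, also lay below 0 in tumour 1, at -0.061. With the median of each gene's own chromosome subtracted, 44 members were below 0 in tumour 1 (58.7% against 47.4% of all genes) and 35 in tumour 3 (46.7% against 54.2%).

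Vmn2r99 is the best covered member, but its 36 probes stretch over 1.08 Mb. In a RefSeq gene table (assembly GRCm38.p6, used for names and order only) the genes Vmn2r93, Vmn2r95, Vmn2r96, Vmn2r97, Vmn2r98 and the pseudogene Vmn2r127 lie with Vmn2r99 between Vmn2r94 and Vmn2r100. By that order, the probes that the array calls Vmn2r99 may span several current V2R genes. The gene value was -0.026, -0.12, 0.062 and 0.089 in tumours 1 to 4. In tumour 4 the 12 middle probes had a median of 0.23, with 10 of 12 above 0, against 0.061 for the first 12 and 0.055 for the last 12. The same 12 probes read -0.26 in tumour 2, 0.085 in tumour 3 and 0.021 in tumour 1. Their median GC content was 33.3%, against 35.8% and 34.2%. This division into 3 runs of 12 probes was chosen after the data had been seen and was not tested.

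**Figure D3:**
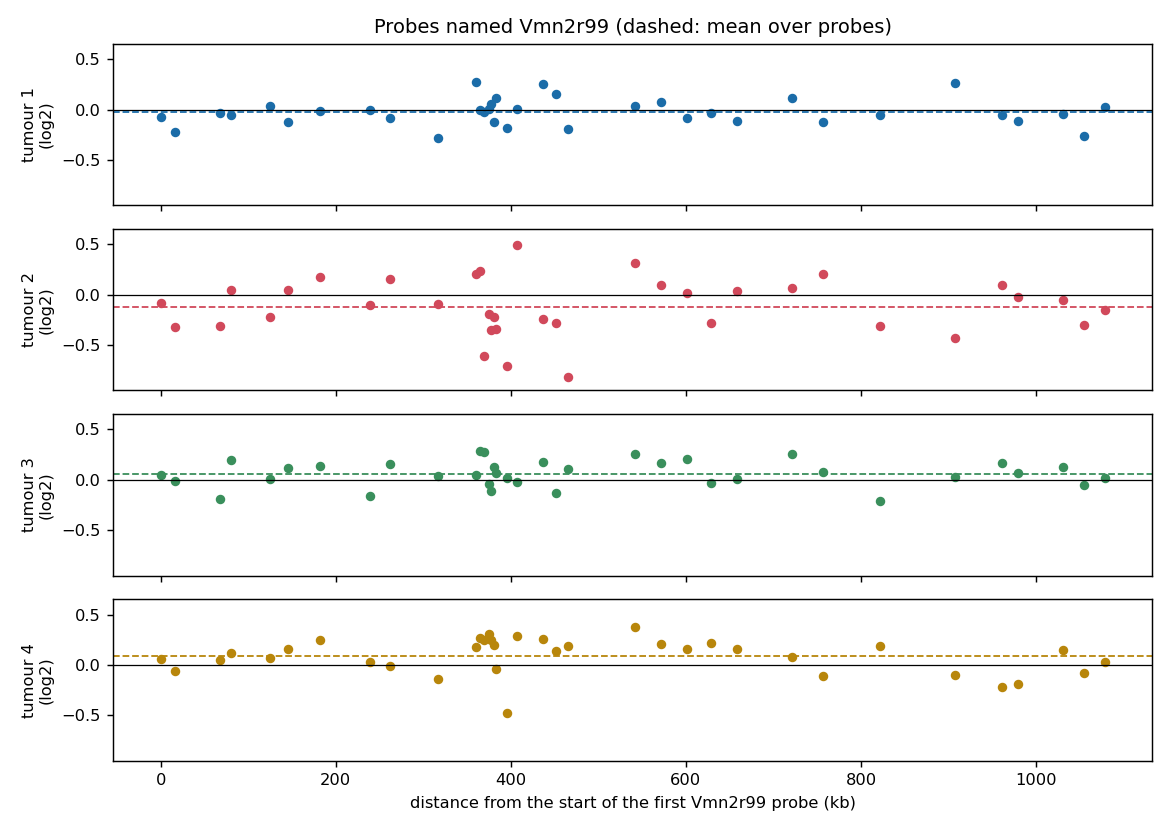
Value of each of the 36 probes named Vmn2r99 (y axis, log2 tumour over reference) by distance from the start of the first (x axis, kb), with 1 panel per tumour and the gene's mean as a dashed line. In tumour 4 the middle 12 probes have a median of 0.23, while the first and last 12 have 0.061 and 0.055.

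Within the chromosome 17 cluster, members stood on both sides of 0. V1re6 had the widest range there, 0.81, and read -0.091, -0.59, 0.22 and 0.071 from a probe of 25% GC. Vmn2r100 had the narrowest, 0.14, and read -0.026, 0.11, 0.11 and 0.087. Vmn2r90, at the proximal edge, was among the 3 lowest members of tumour 1 and read -0.30, -0.21, 0.042 and -0.19. V1re7 read -0.30 in tumour 1 and -0.46 in tumour 2. Vmn2r91 was low in tumour 1, at -0.29, and high in tumour 3, at 0.24. V1re1 was low in tumours 1 and 4, at -0.27 and -0.28. In the smaller cluster beside it, Vmn2r114 ranged most, with -0.21 in tumour 2, and Vmn2r115 least, with -0.15 in tumour 1.

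On chromosome 7, the 8 members from Vmn2r65 to Vmn2r79 (92095654 to 94151714) had medians of -0.13, -0.31, 0.054 and -0.085. All 8 were below 0 in tumour 2 and 7 of 8 in tumour 1. The 123 other probes inside this span read -0.044, -0.11, 0.023 and 0.065. Vmn2r77 was the lowest member of tumour 1 and read -0.36, -0.66, 0.067 and -0.074. Vmn2r72 was the lowest member of tumour 4 and read -0.039, -0.54, 0.051 and -0.39. Vmn2r79, the last of the cluster, was high in tumours 1 and 3, at 0.18 and 0.22, and low in tumour 4, at -0.17. In the 5 members from Vmn2r57 to Vmn2r63 the medians were -0.075, -0.066, 0.11 and -0.052, with Vmn2r61 at -0.47 and Vmn2r63 at 0.33 in tumour 2.

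The 3 members on chromosome 10 from Vmn2r80 to Vmn2r83 (78625662 to 78953352) gave the lowest cluster median of tumour 3 among the 11 clusters, -0.29. Vmn2r80 read 0.017, -0.39, -0.29 and -0.034, and Vmn2r83 read -0.040, -0.25, -0.48 and 0.14. Vmn2r81, which lies between them and has 3 probes, read -0.018, 0.12, 0.032 and 0.031. The low values thus came from the outer 2 genes, each with 1 probe, and not from the gene between them. The 5 other probes inside the span read -0.15 in tumour 3 and -0.47 in tumour 2. The 195 probes within 1 Mb outside the span read -0.0045 and 0.089. The 5 probes had a median GC content of 33.3%. All autosomal probes of 30% to under 35% GC had a median of -0.027 in tumour 3 and -0.18 in tumour 2. With the trend on GC content removed, the member median of this cluster in tumour 2 was 0.16, against -0.25 as reported.

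**Figure D4:**
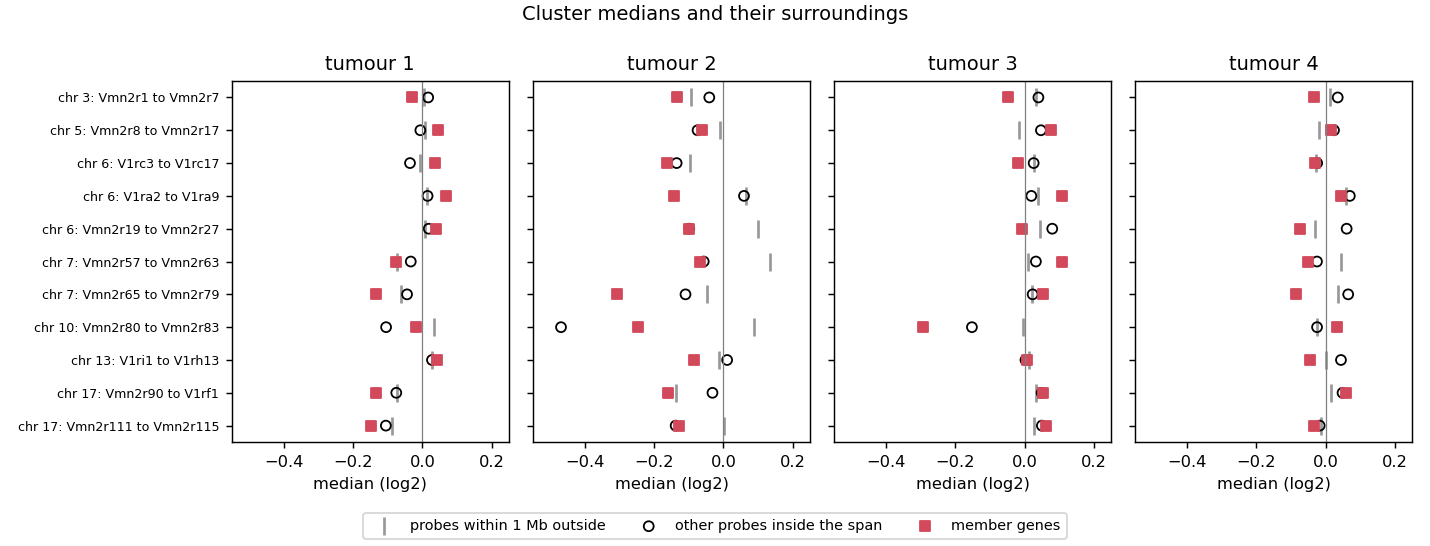
Median over the member genes (red squares), over other probes inside the span (open circles) and over probes within 1 Mb outside it (grey bars) for the 11 clusters of at least 3 members, with 1 panel per tumour and log2 tumour over reference on the x axis. In tumour 3 the chromosome 10 cluster stands at -0.29, and in tumour 2 the squares of all 11 clusters lie below 0. With the trend on GC content removed (not drawn), 3 of the tumour 2 medians lay above 0. They were those of Vmn2r8 to Vmn2r17 (0.021), Vmn2r80 to Vmn2r83 (0.16) and Vmn2r111 to Vmn2r115 (0.0042).

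On chromosome 3, the 6 members from Vmn2r1 to Vmn2r7 had medians of -0.029, -0.13, -0.047 and -0.033. Vmn2r3, with 5 probes, read -0.00047, 0.075, 0.018 and 0.038, while its neighbour Vmn2r4 read -0.11, -0.62, -0.096 and -0.045. On chromosome 5, Vmn2r10 read 0.10, 0.029, 0.063 and 0.072. In the same cluster Vmn2r8 was low in tumour 2, at -0.42, and Vmn2r11 was low in tumours 2 and 4, at -0.29 and -0.32.

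On chromosome 6, V1rc3 read 0.062, -0.34, -0.19 and -0.20, while V1rc6 stayed between -0.098 and 0.099. V1rc17 was among the highest 3 members of tumour 3, with Vmn2r59 and Vmn2r91, at 0.25. V1rb8 was the highest member of tumour 4, at 0.36, and read 0.11, -0.092 and 0.12 in tumours 1 to 3. V1ra1 read -0.37 and V1rb1 0.051 in tumour 2. In the V2R cluster of this chromosome, Vmn2r22 read -0.012, 0.34, 0.047 and 0.21, and Vmn2r27 0.038, 0.16, -0.0076 and 0.034. Vmn2r26, which has 4 probes, read 0.081, -0.38, -0.13 and -0.11. All 4 of its probes were below 0 in tumour 2, from -0.74 to -0.11.

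Tumour 2 read lower at probes of low GC content, over all autosomal probes as among the members, but not all of its low members had such probes. Of the 9 members at -0.5 or below in tumour 2, 5 had under 35% GC and 4 had 36.7% to 38.3%. The file header gives the array of tumour 2 a derivative log ratio spread (the scatter between neighbouring probes) of 0.36 and marks it as out of range, against 0.12, 0.14 and 0.16 for tumours 1, 3 and 4. Over all autosomal probes, the median of tumour 2 was -0.34 below 30% GC, -0.18 from 30% to under 35%, 0.013 from 35% to under 40% and 0.25 at 40% or more. The member probes read -0.27, -0.28, -0.089 and 0.33 in the same classes. In tumours 1, 3 and 4 the class medians of all autosomal probes stayed between -0.046 and 0.049.

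With the trend on GC content removed from each array, the median of the members in tumour 2 was -0.079, against 0.0046 for all genes. Below 0 in tumour 2 were then 44 members (58.7% against 49.3% of all genes). The count at 0.5 or beyond in any tumour was then 5 (6.67% against 11.2%): Vmn2r77, V1rh11, V1rh13, Vmn2r103 and Vmn2r105, all in tumour 2. All 5 lay at -0.5 or below there, 6.67% of the members against 5.09% of all genes. The 4 low members with 36.7% to 38.3% GC were among them, at -0.74 to -0.58 after this step. Vmn2r105 read -0.74 and V1rh11 -0.72 in tumour 2 after this step, close to their values before it. For Vmn2r83, with the lowest GC content, tumour 2 moved from -0.25 to 0.21 while tumour 3 stayed at -0.48. Vmn2r22 moved in tumour 2 from 0.34 to 0.077.

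**Figure D5:**
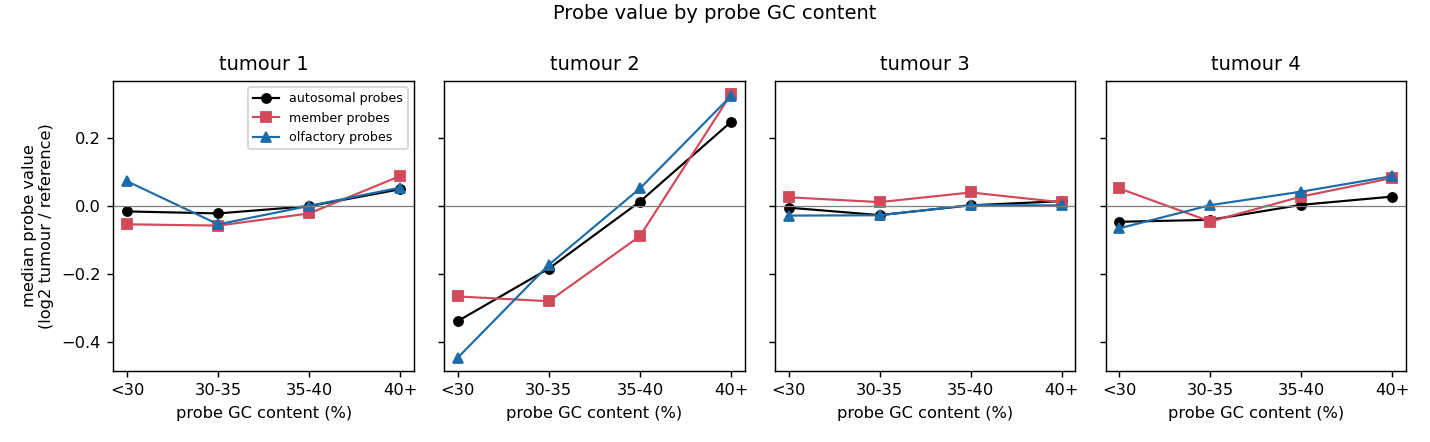
Median probe value (y axis, log2 tumour over reference) by GC content of the probe (x axis, 4 classes) in each tumour, for all autosomal probes, the 147 member probes and the 483 probes of olfactory receptor genes. In tumour 2 the autosomal median runs from -0.34 below 30% GC to 0.25 at 40% or more, and the highest class holds 3 member probes.

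Each channel was also read alone, as the log2 signal relative to that channel's autosomal median. In the reference channel the members' median level was -0.12, -0.088, -0.22 and -0.18 on the arrays of tumours 1 to 4. In the tumour channel it was -0.20, -0.36, -0.20 and -0.18. Array 2 thus had the lowest tumour level and the highest reference level of the members. The 9 members at -0.5 or below in tumour 2 were chosen by that ratio. They lay below their mean over the arrays in the tumour channel (by -0.44 to -0.14) and above it in the reference channel (by 0.048 to 0.31). Most of the 9 were dim on array 2. Their tumour level there ran from -2.0 for V1rc15 to -1.1 for Vmn2r4, apart from Vmn2r77 (-0.62) and Vmn2r105 (-0.15). With the trend on intensity removed, the 5th percentile in tumour 2 was -0.39 for the members and for all genes. As reported it was -0.66 and -0.52. The median distance of a member from its own mean over the 4 arrays was 0.094, 0.099, 0.070 and 0.075 in the tumour channel. In the reference channel it was 0.081, 0.082, 0.073 and 0.079, nearly as large. For Vmn2r105, array 2 differed from the mean of the 4 arrays by -0.15 in the tumour channel and by 0.31 in the reference channel. Of the spots of these genes none was marked as non-uniform, an outlier or saturated, and 2 on array 2 were not well above background. The part of GC content, probe intensity, array noise, slide or dye in these values was not tested.

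Genes known to work with these receptors were taken from 4 lists and gave 0 limma calls in each. Of the 30 genes for signalling and wiring of vomeronasal neurons, 25 were measured, and 4 had an unadjusted p under 0.05, 2 higher and 2 lower, where 17.4% of all genes did. Gnai2, the V1R G protein subunit, read -0.031, 0.35, -0.17 and -0.086, and Gnao1, the V2R one, read -0.0031, -0.11, -0.081 and 0.014. The list's median of the gene means was -0.019. Of 18 other vomeronasal receptors and major histocompatibility partners (the H2-M genes), 8 were measured, with 0 at that threshold. Of 9 protein ligands 3 were measured, with 0, and of 18 transcription factors of vomeronasal neurons 14 were measured, with 1, which was lower.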

How the data were processed

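The deposited files hold, per the file headers, a processed intensity for either dye, made by Agilent Feature Extraction 12.0.1.1 (12.0.0 per the submitters' processing notes), with background subtraction and linear dye normalization. The deposited log10 ratio and the deposited mean and background intensities served for alternatives only. From the processed intensities, log2 of red over green was taken per spot, flagged spots were left out, repeated probes averaged, arrays centred on the autosomal median and probes averaged per gene. No loess was applied, since many probes may shift one way. With 174317 spots per array, precision is limited by the number of arrays. Gene values were tested against 0 with limma 3.58.1 (R 4.3.3) and Benjamini-Hochberg adjustment over 21341 genes. On simulated data this recovered 36% of 50 genes shifted by 0.3 and 92% of 50 shifted by 1 (log2). The simulated noise was independent and, for each gene, equally wide on all 4 arrays. In the data the SD over all genes was 0.34 in tumour 2 and 0.14, 0.13 and 0.16 in tumours 1, 3 and 4. Recovery on these arrays may therefore differ.

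Named genes are, in each cluster of at least 3 members, those with the widest and narrowest range over tumours, the 3 highest and 3 lowest per tumour, and any with an adjusted p under 0.05. The members and lists were chosen with earlier results of these data known. Of the member names, 50 matched a RefSeq symbol (GRCm38.p6), 22 a single synonym and 3 several. The lists used current symbols and synonyms on the same chromosome. Alternatives covered background, centring, trends, filters, limits, direction and each tumour left out.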

Additional observations from a re-analysis of the deposited data

Results flagged for a closer look

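In tumour 2, Vmn2r4 read -0.62 and Vmn2r103 -0.74, each standing far below the other 3 tumours. By the same measure 5 of the 75 members (6.67%) and 8.70% of all genes had 1 tumour apart from the rest, where chance gives about 1 in 20. The median distance of the members from 0 also stood apart in tumour 2, at 0.21. This was not particular to the members. Over all genes it was 0.19 in tumour 2 and 0.075, 0.071 and 0.087 in tumours 1, 3 and 4.

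Among names off the autosomes, Vmn2r121 on the X chromosome, with 1 probe, read -1.32 in tumour 2, and -0.35, -0.48 and 0.16 in tumours 1, 3 and 4. The mean of all X probes was -0.82, -0.054, -0.0061 and 0.84 in tumours 1 to 4 and that of Y probes 2.22, -0.087, -0.20 and -2.35, although the labels call both channels male. The unplaced V2r1, with 3 probes, read -0.031, -0.35, -0.016 and -0.19.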

How the results depend on the processing

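No limma call arose among the members under any alternative run, and the median over members and its distance from 0 kept within the spread between tumours except under normexp background correction. With normexp the median distance was 0.20, the count at 0.5 or beyond 20, the spread between cluster medians (highest minus lowest, mean over tumours) 0.52 against 0.25, and the members of 1 sign in all tumours 34 against 19. The count at 0.5 or beyond, 10 as reported, was 3 with the intensity trend removed, 5 with the GC trend removed, 6 with probes of 35 to 40% GC only (chosen after seeing the data), 4 with at least 2 probes, 29 at a limit of 0.3 and 0 at a limit of 1. All genes moved too: their median distance in tumour 2 was 0.19 as reported and 0.26 with normexp. It was 0.15 with the intensity trend removed and 0.17 with the GC trend removed. Shares of all genes were 11.2% with the GC trend removed, 5.89% with at least 2 probes and 36.2% at a limit of 0.3. The other counts of this paragraph stand without such a share and do not set the members apart. Members of 1 sign numbered 10 with probes of 35 to 40% GC, 6 with at least 2 probes and 3 with the sign of tumour 4 turned. At a limit of 0.1, 6 members were of opposite sign in tumours 1 and 4. With 1 tumour left out, the count at 0.5 ranged from 0 (without tumour 2) to 10 and the members of 1 sign from 22 to 34. Leaving out a tumour can only keep or lower the first count and only keep or raise the second. The direction of these changes was therefore fixed in advance. In all, 192 of 209 values of the main results and 614 of 639 of single genes kept their reading, and 0 were marked as reversed. These counts do not mean that every sign in every tumour held. With the GC trend removed, Vmn2r83 went from -0.25 to 0.21 in tumour 2, and the median of its cluster from -0.25 to 0.16. Within slides, the member median of the slide mean was -0.12 for tumours 1 and 2 (all genes 0.0063) and -0.014 for tumours 3 and 4 (all genes -0.014). The causes were not tested. Single probes, 4 arrays and the noise of array 2 limit these values.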
